A study of Mus musculus with 143 samples.

Results

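Pde3a, the phosphodiesterase that breaks down cAMP in the oocyte, had the most negative log2 fold change of the 10 genes followed here in Dis3 cKO oocytes outside p20 (postnatal day 20). Its transcript was lower in every Dis3 cKO library than in every control library among GV, GV3h and MII poly(A) libraries and adult RiboMinus libraries, while no other member was called lower in all 4 of these comparisons. Of all genes 8.33%, 15.7%, 14.8% and 12.4% were called lower in them, in that order. The share of all genes without overlap between groups was not computed here or below. Neither trait is shown to be particular to Pde3a, and Rgs17, described below, also fell in all 4. The 10 genes of the cAMP arrest pathway were chosen by name: the receptors Gpr3 and Gpr12, the G protein subunit gene Gnas, the adenylyl cyclases Adcy3 and Adcy9, the phosphodiesterase Pde3a, and the protein kinase A (PKA) genes Prkaca, Prkacb, Prkar1a and Prkar2b. They are 10 of the 55573 gene IDs in the poly(A) count tables and of the 55487 in the RiboMinus count tables, and all 10 passed the filter on low counts in every fit.

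The study compared mouse oocytes that lack 1 or both catalytic RNases of the nuclear RNA exosome, DIS3 and EXOSC10, with control oocytes. In the poly(A) libraries, made from RNA caught on oligo-dT beads, single oocytes of control and Dis3 cKO mice were sequenced as GV oocytes (8 control, 15 cKO), as oocytes named GV3h that were held 3 h in M2 medium (8 and 16), and as MII eggs taken from the oviducts of superovulated mice (8 and 16). RiboMinus libraries, made with random hexamers, hold 8 single oocytes in each of 6 groups: adult GV control and Dis3 cKO, and 4 groups at p20, namely dcKO, in which Dis3 and Exosc10 counts are both low, Exosc10 cKO, Dis3 cKO and control. CUT&Tag libraries from bulk oocytes, 3 per group, map the repressive histone mark H3K27me3 and phosphorylated RNA polymerase II (the antibody tag in the labels is pols2s5).

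The labels say that the mutant mice were made with CRISPR/Cas9 and name no Cre driver and no strain, no age for the poly(A) libraries and no exact age for the adults. They do not say whether the GV3h oocytes had kept or lost the nucleus, nor whether the medium held an inhibitor of resumption. Title tags split each RiboMinus group into 2 sets of 4 oocytes. The labels do not define these tags or tie the poly(A) oocytes to animals, so all p-values measure the spread between oocytes, which may share an animal.

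A mammalian oocyte waits in meiotic prophase, with its nucleus (the germinal vesicle, GV) intact, for as long as its cAMP stays high. GPR3, an orphan receptor that signals without an added ligand, drives the stimulatory G protein GNAS and through it adenylyl cyclase, and the cAMP made keeps PKA active, which holds the kinase WEE2 on, the phosphatase CDC25B off and CDK1 inactive. PDE3A is the phosphodiesterase that removes this cAMP. In the follicle it is held back by cGMP that reaches the oocyte through gap junctions, and when cGMP drops PDE3A lowers cAMP, the nucleus breaks down and the oocyte moves on to metaphase II (MII).

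The chromatin data bear on the starts of these genes, so 4 of the upstream sequences are shown. Each is the 250 bases before an annotated start, read 5′ to 3′ on the gene's strand from RefSeq on GRCm38.p6. Capitals mark the core of the cAMP response element, TGACG or CGTCA on the other strand, and in Prkar1a also the full element TGACGTCA, with which cores overlap. Gpr3 is shown because its start carried an RNA polymerase II peak most often, Adcy3 because its start carried H3K27me3 in every list, and Gnas because H3K27me3 at its most upstream start was listed in every control and in no adult Dis3 cKO list. The Prkar1a start shown is the one with the full element, and H3K27me3 lay there in 0 of 3 adult control and 2 of 3 adult Dis3 cKO lists. These are Gpr3 at chr4:133212537-133212786 (minus strand), the most upstream annotated start of Gnas at chr2:174284070-174284319 (plus strand), Adcy3 at chr12:4133147-4133396 (plus strand) and Prkar1a at chr11:109650699-109650948 (plus strand):
Gpr3: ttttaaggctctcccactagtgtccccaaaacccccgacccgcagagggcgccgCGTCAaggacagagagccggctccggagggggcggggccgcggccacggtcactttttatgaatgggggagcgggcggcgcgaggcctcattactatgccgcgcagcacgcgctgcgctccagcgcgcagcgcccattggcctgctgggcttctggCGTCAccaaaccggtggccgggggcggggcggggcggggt
Gnas: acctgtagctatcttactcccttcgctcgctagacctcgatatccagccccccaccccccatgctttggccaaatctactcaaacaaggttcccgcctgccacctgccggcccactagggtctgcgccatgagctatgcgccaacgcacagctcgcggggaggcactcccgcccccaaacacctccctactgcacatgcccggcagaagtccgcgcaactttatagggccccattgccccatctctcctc
Adcy3: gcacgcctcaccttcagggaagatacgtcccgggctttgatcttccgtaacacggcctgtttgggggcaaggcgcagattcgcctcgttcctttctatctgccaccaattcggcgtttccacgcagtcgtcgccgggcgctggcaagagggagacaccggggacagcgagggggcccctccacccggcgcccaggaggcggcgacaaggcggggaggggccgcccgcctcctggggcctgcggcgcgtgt
Prkar1a: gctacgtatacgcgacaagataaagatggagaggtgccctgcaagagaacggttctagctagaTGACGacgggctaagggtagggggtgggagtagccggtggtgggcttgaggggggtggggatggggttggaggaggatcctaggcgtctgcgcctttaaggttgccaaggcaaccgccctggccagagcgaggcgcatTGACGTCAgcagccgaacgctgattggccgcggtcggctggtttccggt

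The promoter table held 23 starts of 9 members, all but Pde3a. The core lay in the windows of 10 of the 23 starts, in 6 of the 9 genes, and in 17.8% of all 32851 windows in the table. The full element lay in 1 member window, the one shown for Prkar1a, and in 1.55% of all windows. Windows of the same gene can overlap and hold the same core, as happens in Gnas and Prkar1a. A share of genes with any such window is also not a share of windows. Enrichment was not tested, and a match describes these letters alone.

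Gene counts per library ran from 4843964 to 15412200 in the 71 poly(A) libraries and from 8492102 to 35429028 in the 48 RiboMinus libraries. Dis3 was lower in every Dis3 cKO and dcKO library than in every control library of the same stage, age and assay, and Exosc10 in every Exosc10 cKO and dcKO library than in every p20 control. All 13 oocyte markers averaged at least 1 CPM (counts per 1000000 gene counts of the library) in all 12 groups, and their sum was 15460 to 18722 CPM in dcKO, above every p20 control at 10695 to 14883. Of 16 granulosa and cumulus markers, Tnfaip6 and Ptx3 had a median of 0 in every group, and the summed CPM of the list was 87.3 to 147 in MII controls and 52.6 to 90.7 in MII Dis3 cKO eggs. Between these groups mean Cyp19a1 went from 54.0 to 24.4 CPM, while mean Nr5a2 went from 26.0 to 30.9. The median sum was also lower in Dis3 cKO than in controls in GV (103 against 127) and GV3h (80.3 against 89.3), with overlapping ranges. At p20 the median sum was 140 CPM in controls and higher in dcKO (174), Exosc10 cKO (164) and Dis3 cKO (177), with overlapping ranges. It was 109 in adult RiboMinus controls and 120 in adult Dis3 cKO, also with overlapping ranges. Single markers of the list went both ways. From p20 controls to dcKO, mean Nr5a2 went from 79.2 to 130 CPM and mean Cyp19a1 from 27.4 to 4.97. Of 7 theca and stroma markers, Col1a2, Col3a1 and Acta2 had a median of 0 in every group, and the sum was 0.351 to 3.27 CPM in GV3h controls and 1.898 to 12.2 in GV3h Dis3 cKO oocytes. It was also higher in the medians of GV (5.97 against 1.56), MII (5.97 against 1.35) and adult RiboMinus (4.29 against 2.03) Dis3 cKO than control libraries, with overlapping ranges. The 5 blood markers had a median of 0 in every group. The part of these marker levels in the results was not tested. Among 119 RNA libraries, 4 correlated with their group's median profile below 0.94 (r from 0.808 to 0.930), namely libraries 6 and 8 of GV Dis3 cKO and 7 and 15 of MII Dis3 cKO, and results that lose a call without them are given both ways.

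Counts of members called stand beside the share of all genes called in the same comparison. The members' share was close to it in GV, GV3h and the p20 single mutants and above it in MII, adult RiboMinus and dcKO oocytes, and this difference was not tested. A call means a Benjamini-Hochberg adjusted p under 0.05 in the quasi-likelihood F test of edgeR, adjusted over all genes tested. Dis3 cKO against control called 2 of 10 members in GV oocytes (21.9% of all genes), 4 in GV3h oocytes (38.6%), 6 in MII eggs (42.1%), 4 in adult RiboMinus oocytes (28.1%) and 1 at p20 (7.37%). Exosc10 cKO called 1 (7.45%) and dcKO 8 (53.7%), and dcKO called 7 against Dis3 cKO (51.5%) and 8 against Exosc10 cKO (49.2%). The median log2 fold change of the 10 members was -0.11 in GV, -0.14 in GV3h and 0.076 in MII Dis3 cKO, beside 0.035, 0.067 and 0.16 over all genes. It was -0.23 in adult RiboMinus Dis3 cKO, beside 0.026. At p20 it was -0.072 in Dis3 cKO, -0.12 in Exosc10 cKO and -0.49 in dcKO, beside 0.0037, 0.015 and -0.0061. The p20 comparisons share their control libraries. Under spike-in scaling the members called became 1 in GV Dis3 cKO (20.6% of all genes), 7 in adult RiboMinus (44.6%), 0 in Exosc10 cKO (2.29%) and 5 in dcKO (38.2%), with 3 for dcKO against Dis3 cKO (36.9%) and 5 against Exosc10 cKO (31.6%).

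**Figure D1:**
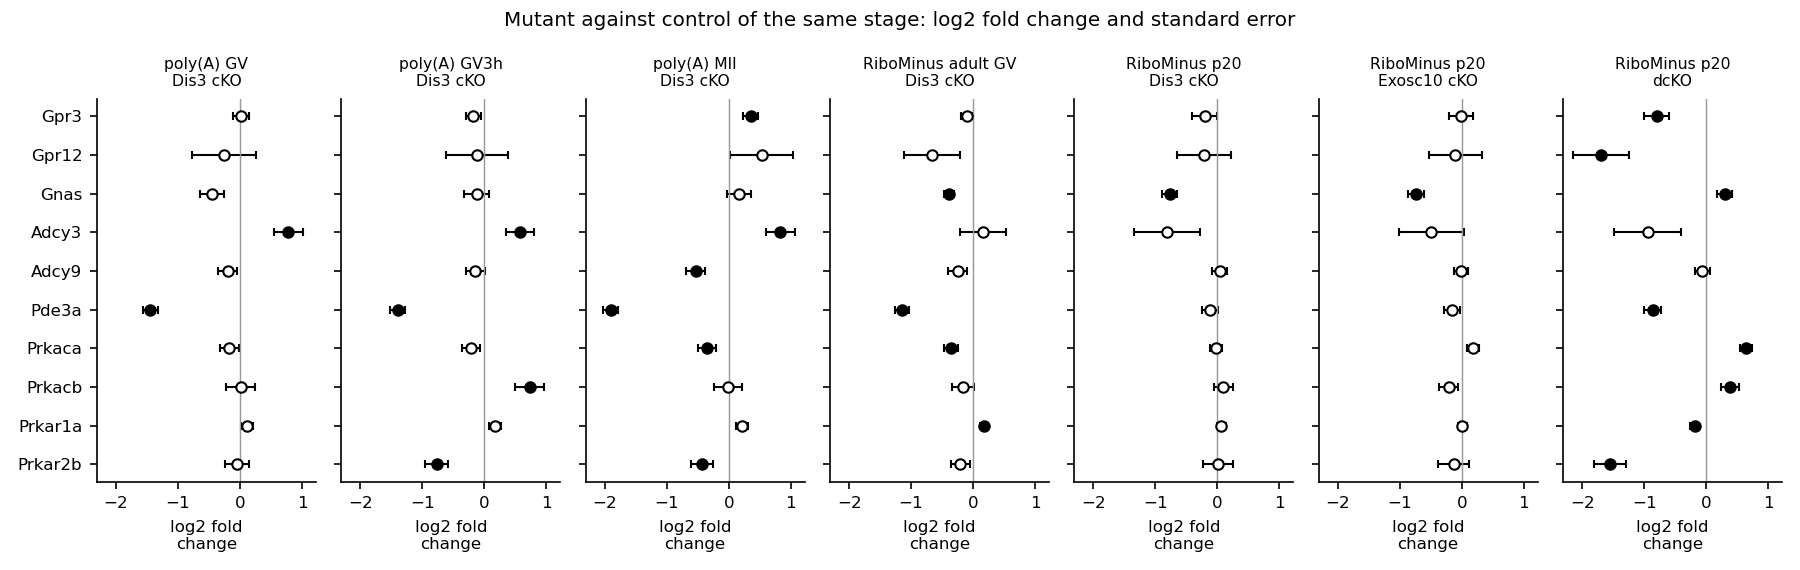
Log2 fold change (x axis, no unit) with its standard error for each member (rows) in the 7 comparisons of mutant with control oocytes of the same stage (panels), as fitted by edgeR. Pde3a lies furthest below 0 in the 3 poly(A) panels and the adult RiboMinus panel, between -1.15 and -1.90, and Prkar2b and Gpr12 lie furthest below 0 in dcKO, at -1.55 and -1.69, while the small rise of Prkar1a in adult RiboMinus oocytes (0.18) becomes -0.36 when libraries are scaled to spike-in counts.

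Pde3a (chr6:141249269-141506862, overlapping the long noncoding genes Gm28523 and Gm10400) encodes the phosphodiesterase that lowers oocyte cAMP. In poly(A) GV oocytes it was read from 399.7 to 491 CPM with a median of 447 in controls and from 121 to 239 CPM with a median of 177 in Dis3 cKO. No cKO oocyte reached the lowest control. The log2 fold change was -1.45, SE 0.12, adjusted p = 1.2e-15.

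GV3h oocytes gave a difference of similar size. Pde3a ran from 428 to 520.2 CPM with a median of 455 in GV3h controls and from 132 to 271 CPM with a median of 181 in GV3h Dis3 cKO oocytes. All 16 cKO oocytes lay below all 8 controls, with a log2 fold change of -1.40, SE 0.12, adjusted p = 1.1e-15. In MII eggs it ran from 431 to 621 CPM with a median of 566 in controls and from 57.3 to 199.6 CPM with a median of 165 in Dis3 cKO eggs, again without overlap. The log2 fold change there was -1.90, SE 0.12, adjusted p = 2.5e-22, and the gap between this effect and that in GV oocytes was -0.45 (SE 0.17, adjusted p = 0.0679), short of the threshold in edgeR, called by DESeq2 and 0.19 under spike-in scaling.

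Oligo-dT capture catches transcripts by their tail, so shorter tails and fewer transcripts cannot be told apart in the poly(A) libraries. The RiboMinus libraries do not select on the tail. In them Pde3a ran from 472 to 544 CPM with a median of 502 in adult controls and from 188 to 330.0 CPM with a median of 227 in adult Dis3 cKO oocytes, without overlap. Its log2 fold change was -1.15, SE 0.11, adjusted p = 1.0e-06. Both title tags lay on the same side, with means of 505 and 505 CPM in the control tags and of 210.1 and 269 in the cKO tags. When counts were summed per tag, so that 2 sums stood on each side, the log2 fold change was -1.19 with an adjusted p of 0.12, and that fit called 0 of all genes.

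At p20 the picture differed. Pde3a ran from 553 to 614 CPM with a median of 581 in p20 controls, from 445 to 582 CPM with a median of 541 in p20 Dis3 cKO, and from 317 to 622 CPM with a median of 549.9 in Exosc10 cKO oocytes. Both single mutants overlapped the controls, and neither log2 fold change was called, at -0.12 (adjusted p = 0.674) and -0.15 (adjusted p = 0.56). The Dis3 effect in adult oocytes minus that in p20 oocytes was -1.04 (SE 0.18, adjusted p = 9.1e-05), the only one of the 10 members called for this difference, against 9.32% of all genes. With counts summed per tag it was -1.07 with an adjusted p of 0.2.

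In dcKO oocytes Pde3a fell. It ran from 208 to 518 CPM with a median of 351, below all 8 p20 controls, with a log2 fold change of -0.86, SE 0.13, adjusted p = 1.8e-06. The 2 dcKO tags were unequal, at means of 282 and 425 CPM, and both lay below the control tags at 580 and 576. Against Dis3 cKO oocytes the log2 fold change was -0.74 (adjusted p = 2.2e-05), and against Exosc10 cKO oocytes -0.71 (adjusted p = 4.1e-05). The first was -0.45 with an adjusted p of 0.14 under spike-in scaling.

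**Figure D2:**
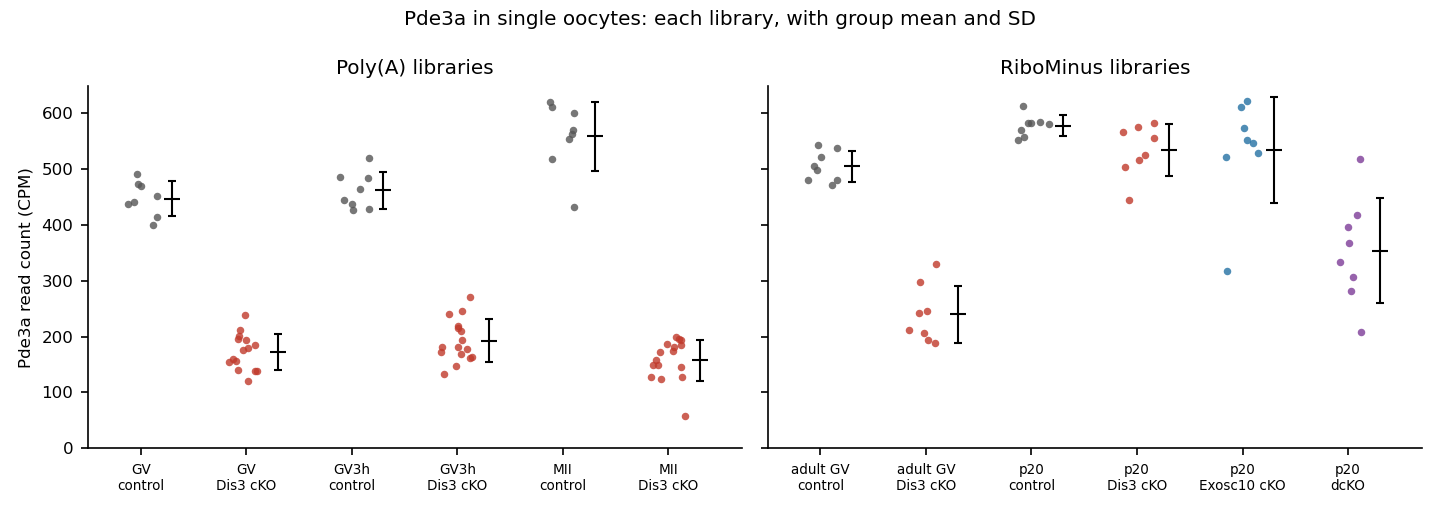
Pde3a read count in CPM (y axis) in each single-oocyte library (points) with the group mean and SD, poly(A) groups on the left and RiboMinus groups on the right. Dis3 cKO points lie below all control points in the 3 poly(A) stages and in adult RiboMinus oocytes, p20 Dis3 cKO and Exosc10 cKO points overlap the p20 controls, and dcKO points (208 to 518) lie below them.

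The receptor genes were called lower in dcKO oocytes and in no other mutant against control. Gpr3 (chr4:133209340-133212536, with no overlapping gene) encodes the receptor that keeps Gs active in the oocyte. In GV oocytes it ran from 55.9 to 74.7 CPM with a median of 66.4 in controls and from 43.7 to 102 CPM with a median of 70.3 in Dis3 cKO, and in adult RiboMinus oocytes from 109 to 149.5 CPM with a median of 121 in controls and from 95.5 to 153 CPM with a median of 125 in Dis3 cKO. The ranges overlapped in both, and the log2 fold changes were 0.013 (adjusted p = 0.961) and -0.10 (adjusted p = 0.448).

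GV3h Dis3 cKO oocytes also overlapped their controls for Gpr3, at 74.7 to 112 CPM against 74.9 to 113, with a log2 fold change of -0.18 (adjusted p = 0.254). In MII eggs Gpr3 ran from 44 to 93.2 CPM with a median of 71.3 in controls and from 46.9 to 129 CPM with a median of 90.1 in Dis3 cKO, where 8 of 16 cKO eggs lay above every control. This gave a log2 fold change of 0.35, SE 0.13, adjusted p = 0.0183. This call did not hold without the low-count filter (0.31, adjusted p = 0.069), in a fit of these 2 groups alone (0.32, adjusted p = 0.12) or with the replicate number as a block (0.25, adjusted p = 0.12), and it held under spike-in scaling at 0.76.

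Gpr3 fell in dcKO oocytes. It ran from 107 to 143 CPM with a median of 133 in p20 controls, from 94.8 to 129 CPM with a median of 115 in p20 Dis3 cKO, from 62.8 to 173 CPM with a median of 147 in Exosc10 cKO and from 36.4 to 133 CPM with a median of 89.5 in dcKO. Of 8 dcKO oocytes, 5 lay below every control, and the tags were unequal, at means of 54.6 and 112 CPM beside 123 and 138 in the control tags. The log2 fold change against control was -0.80, SE 0.20, adjusted p = 0.00112, and with counts summed per tag it was -0.81 with an adjusted p of 0.064. It was -0.60 (adjusted p = 0.0134) against Dis3 cKO, where spike-in scaling gave -0.32 with an adjusted p of 0.4, and -0.79 (adjusted p = 0.00151) against Exosc10 cKO. Against control, neither single mutant was called, with -0.20 (adjusted p = 0.641) in Dis3 cKO and -0.012 (adjusted p = 0.981) in Exosc10 cKO.

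Gpr12 (chr5:146582150-146586465) encodes the receptor closest in kind to GPR3, with a larger role in rat than in mouse oocytes. Its counts were close to the floor in poly(A) libraries, 0 to 45 reads per library, and 0 to 136 reads in RiboMinus libraries. In p20 controls it ran from 2.26 to 3.65 CPM with a median of 2.99, and in dcKO from 0 to 3.13 CPM with a median of 0.856. Of 8 dcKO oocytes, 7 lay below every control, 1 of them at 0 reads. Its log2 fold change was -1.69, SE 0.46, adjusted p = 0.00208, and against Dis3 cKO it was -1.48 (adjusted p = 0.00702), or -1.16 with an adjusted p of 0.071 under spike-in scaling. Against Exosc10 cKO it was -1.59 (adjusted p = 0.00402). No other comparison of mutant with control called Gpr12, and its log2 fold changes there ran from -0.66 in adult Dis3 cKO RiboMinus oocytes to 0.53 in MII Dis3 cKO eggs.

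Gnas moved in opposite directions in the single and the double mutants at p20. It encodes the stimulatory alpha subunit that carries the receptor's signal to adenylyl cyclase. The annotated gene (chr2:174284320-174346744) is an imprinted locus with several starts, and it overlaps the antisense RNA gene Gnasas1 and the long noncoding gene Gm30189. Strand use in counting is not given in the sources used here, so reads from Gnas and Gnasas1 cannot be told apart. At p20 Gnas ran from 171 to 274 CPM with a median of 228 in controls, from 91.1 to 178 CPM with a median of 122 in Dis3 cKO, from 109 to 191 CPM with a median of 131 in Exosc10 cKO and from 252 to 365 CPM with a median of 309 in dcKO.

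In each p20 single mutant 6 of 8 oocytes lay below every control for Gnas, and in dcKO 6 of 8 lay above every control. The log2 fold changes were -0.77 (SE 0.12, adjusted p = 3.8e-05) in Dis3 cKO, -0.73 (SE 0.12, adjusted p = 1.2e-04) in Exosc10 cKO and 0.30 (SE 0.12, adjusted p = 0.0385) in dcKO. Every dcKO oocyte lay above every oocyte of either single mutant, with log2 fold changes of 1.07 (adjusted p = 1.8e-08) against Dis3 cKO and 1.04 (adjusted p = 4.0e-08) against Exosc10 cKO. The dcKO call against control was lost under spike-in scaling (0.20, adjusted p = 0.49) and with counts summed per tag (0.28, adjusted p = 0.17). The Exosc10 cKO call was lost in the same 2 settings, with adjusted p of 0.074 and 0.058.

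In adult RiboMinus oocytes Gnas ran from 122 to 189 CPM with a median of 143 in controls and from 108 to 147 CPM with a median of 118 in Dis3 cKO, with 6 of 8 cKO oocytes below every control and a log2 fold change of -0.39, SE 0.08, adjusted p = 0.00138. The control tags differed, at means of 132 and 166 CPM, and the cKO tags stood at 126 and 114. Poly(A) oocytes showed wide ranges, 115 to 210.2 CPM in GV controls and 90.3 to 206 in GV Dis3 cKO, with a log2 fold change of -0.46 (adjusted p = 0.0865) that was called in a fit of these 2 groups alone (adjusted p = 0.0034) and without the 4 libraries that stand apart (adjusted p = 0.03). GV3h (-0.13) and MII (0.17) were not called (edgeR adjusted p = 0.641 and 0.511). In MII Dis3 cKO eggs Gnas spread from 30.1 to 289.5 CPM, beside 73.5 to 104 in MII controls.

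**Figure D3:**
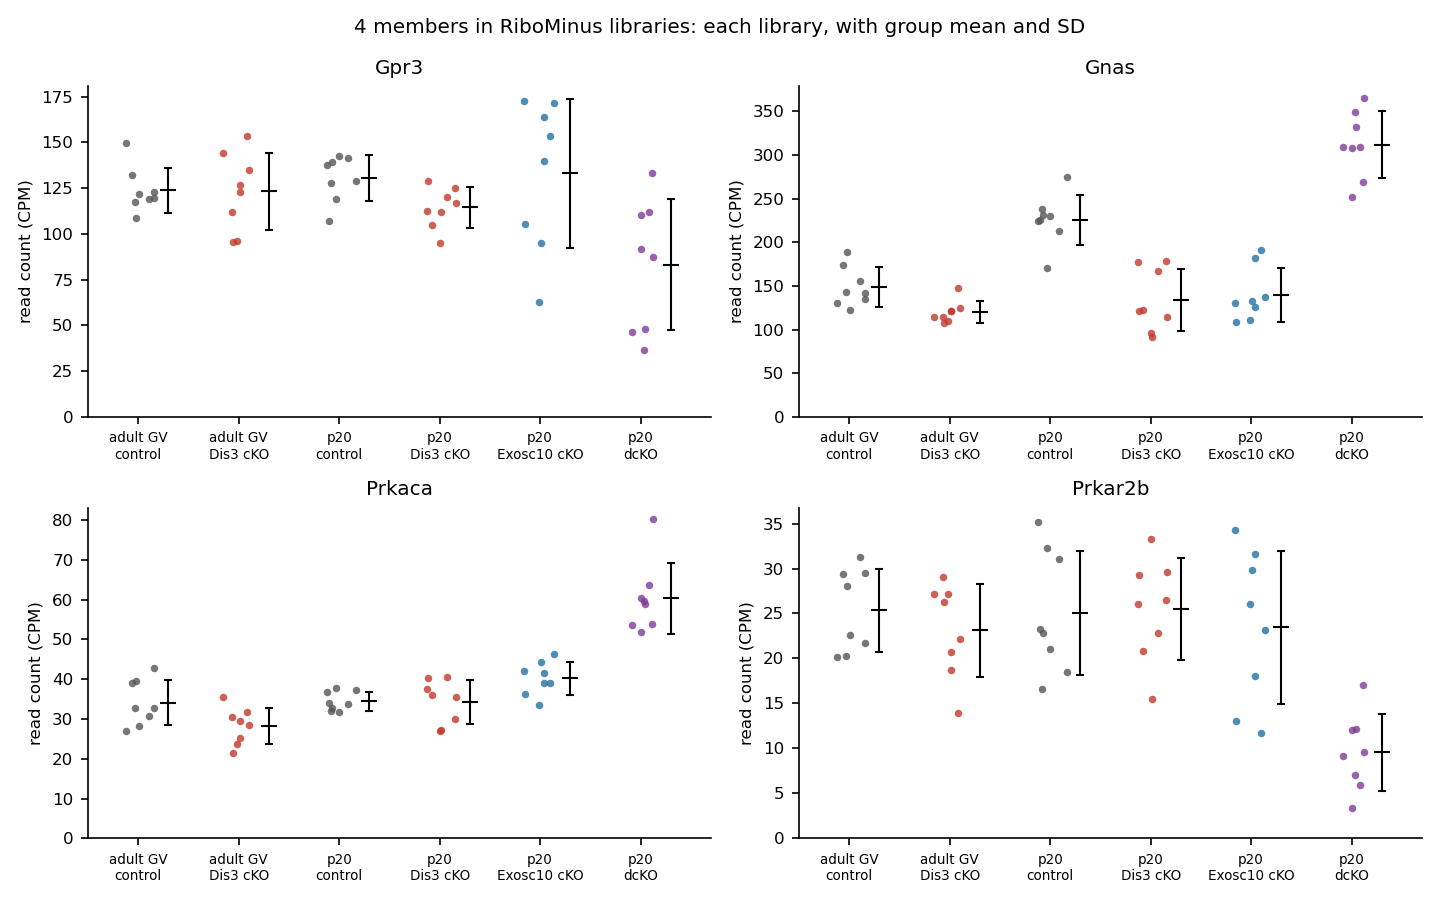
Read count in CPM (y axes) of Gpr3, Gnas, Prkaca and Prkar2b in each RiboMinus library (points) with the group mean and SD, by group on the x axes. In dcKO oocytes Gpr3 and Prkar2b extend below the controls, all Prkaca points (51.9 to 80.2) lie above the controls (31.7 to 37.7), and Gnas lies above both p20 single mutants, with its rise over controls not called under spike-in scaling.

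The cyclase genes differed in the poly(A) libraries. Adcy3 (chr12:4133116-4213525, overlapping the coding gene Cenpo) encodes the adenylyl cyclase best known for making oocyte cAMP in rodents. It was read at 15 to 215 reads per poly(A) library. It ran from 1.64 to 6.19 CPM with a median of 5.2 in GV controls and from 3.83 to 11.7 CPM with a median of 8.7 in GV Dis3 cKO oocytes, 14 of which lay above every control. In GV3h oocytes the values were 2.47 to 8.28 CPM in controls and 6.09 to 13.8 in Dis3 cKO, and in MII eggs 2.63 to 13.3 and 5.1 to 20, so the groups overlapped at each stage.

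Adcy3 rose in Dis3 cKO at all 3 poly(A) stages, with log2 fold changes of 0.78 (SE 0.24, adjusted p = 0.0115) in GV, 0.58 (SE 0.23, adjusted p = 0.0416) in GV3h and 0.83 (SE 0.23, adjusted p = 0.00265) in MII. Spike-in scaling ended the GV call (0.51, adjusted p = 0.19) and the GV3h call (0.53, adjusted p = 0.15). The GV3h call was also lost without the low-count filter (adjusted p = 0.074) and with the replicate block (adjusted p = 0.068). In RiboMinus libraries Adcy3 was read at 1 to 88 reads and no comparison of mutant with control called it, with 0.16 (adjusted p = 0.789) in adult Dis3 cKO and -0.94 (adjusted p = 0.141) in dcKO. Reads from Cenpo, which shares part of the locus, cannot be told apart where the genes overlap.

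Adcy9 (chr16:4284886-4437236, overlapping the pseudogene Gm6142) encodes another membrane cyclase. In MII eggs it ran from 41.1 to 75.6 CPM with a median of 54.5 in controls and from 22.4 to 66.2 CPM with a median of 39.3 in Dis3 cKO, with 9 of 16 cKO eggs below every control. Its log2 fold change was -0.53, SE 0.15, adjusted p = 0.00229, and under spike-in scaling it was -0.18 with an adjusted p of 0.52. The 6 other comparisons of mutant with control did not call Adcy9, with log2 fold changes from -0.25 in adult RiboMinus to 0.04 in p20 Dis3 cKO oocytes. Its p20 values were 35 to 45.5 CPM in controls and 31.6 to 49.3 in dcKO, overlapping almost throughout.

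The PKA catalytic genes rose in dcKO oocytes. Prkaca (chr8:83972978-83996444, with no overlapping gene) encodes the alpha catalytic subunit. It ran from 31.7 to 37.7 CPM with a median of 33.8 in p20 controls, from 27.1 to 40.6 CPM with a median of 35.9 in Dis3 cKO, from 33.6 to 46.3 CPM with a median of 40.4 in Exosc10 cKO and from 51.9 to 80.2 CPM with a median of 59.3 in dcKO. All 8 dcKO oocytes lay above every oocyte of the other p20 groups. This gave a log2 fold change of 0.64, SE 0.10, adjusted p = 8.4e-07. It was 0.67 (adjusted p = 6.7e-07) against Dis3 cKO and 0.46 (adjusted p = 1.5e-04) against Exosc10 cKO, the second lost under spike-in scaling (0.37, adjusted p = 0.157), and neither single mutant was called against control, at -0.021 (adjusted p = 0.938) and 0.19 (adjusted p = 0.262).

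Prkaca fell in adult RiboMinus and MII Dis3 cKO groups. Adult RiboMinus values ran from 26.9 to 42.9 CPM with a median of 32.9 in controls and from 21.3 to 35.6 CPM with a median of 29 in Dis3 cKO, overlapping, with a log2 fold change of -0.36, SE 0.11, adjusted p = 0.0212. In MII eggs they ran from 17.6 to 33.3 CPM with a median of 28.9 and from 10.3 to 31.6 CPM with a median of 23, also overlapping, with -0.35, SE 0.15, adjusted p = 0.0466. The MII call was lost under spike-in scaling (-0.057, adjusted p = 0.84), without the low-count filter (adjusted p = 0.054), in a fit of these 2 groups (adjusted p = 0.086) and without library 7 of MII Dis3 cKO (-0.29, adjusted p = 0.077). The GV value of -0.17 (adjusted p = 0.46) and the GV3h value of -0.22 (adjusted p = 0.255) were not called by edgeR.

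Prkacb (chr3:146729579-146812946, overlapping LOC115486180 and Gm19104) encodes the beta catalytic subunit. At p20 it ran from 20.4 to 46.1 CPM with a median of 29.7 in controls and from 38.5 to 55.8 CPM with a median of 47.6 in dcKO, where 4 of 8 oocytes lay above every control. Its log2 fold change was 0.38, SE 0.15, adjusted p = 0.0301, lost under spike-in scaling (0.26, adjusted p = 0.4) and with counts summed per tag (0.34, adjusted p = 0.15). Every dcKO oocyte lay above every Exosc10 cKO oocyte, at 0.59 (adjusted p = 0.00137), a call lost under spike-in scaling (0.51, adjusted p = 0.102). In GV3h oocytes Prkacb ran from 4.02 to 12.8 CPM with a median of 8.22 in controls and from 8.8 to 26.4 CPM with a median of 14.8 in Dis3 cKO, with 10 of 16 above every control and a log2 fold change of 0.74, SE 0.23, adjusted p = 0.00949. The GV and MII values for Dis3 cKO were 0.008 (adjusted p = 0.987) and -0.018 (adjusted p = 0.961), and the gap between the GV3h and GV effects was 0.73 (adjusted p = 0.267), which edgeR did not call.

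The regulatory subunits, which bind the catalytic subunits until cAMP releases them, showed 2 patterns. Prkar2b (chr12:31958450-32061648, with no overlapping gene) encodes the type II beta subunit and fell in dcKO oocytes. It ran from 16.6 to 35.2 CPM with a median of 23 in p20 controls, from 15.5 to 33.3 CPM with a median of 26.3 in Dis3 cKO, from 11.7 to 34.3 CPM with a median of 24.6 in Exosc10 cKO and from 3.36 to 17.1 CPM with a median of 9.39 in dcKO. Of 8 dcKO oocytes, 7 lay below every control. This gave a log2 fold change of -1.55, SE 0.25, adjusted p = 4.3e-06, with -1.57 (adjusted p = 5.0e-06) against Dis3 cKO and -1.42 (adjusted p = 2.1e-05) against Exosc10 cKO.

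In poly(A) GV3h oocytes Prkar2b ran from 18.2 to 33.4 CPM with a median of 26.6 in controls and from 7.49 to 32.6 CPM with a median of 16.3 in Dis3 cKO, with 11 of 16 below every control. Its log2 fold change was -0.77, SE 0.18, adjusted p = 5.4e-04. In MII eggs the ranges were 35.1 to 63.9 CPM in controls and 25.9 to 55.7 in Dis3 cKO, with -0.43, SE 0.18, adjusted p = 0.0493. That MII call was lost under spike-in scaling (-0.073, adjusted p = 0.83) and without library 7 of MII Dis3 cKO (-0.41, adjusted p = 0.069).

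GV Dis3 cKO oocytes did not differ detectably from GV controls in Prkar2b, at -0.047 (adjusted p = 0.899). There the 2 highest values, 70.7 and 61.3 CPM, came from libraries 6 and 8, which stand apart, and the lowest was 12.2, beside 25.7 to 39.9 in controls. Adult RiboMinus Prkar2b was not called either, at -0.21 (adjusted p = 0.344).

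Prkar1a (chr11:109649023-109669663, overlapping the long noncoding gene Gm39443) encodes the type I alpha subunit. In adult RiboMinus oocytes it ran from 96 to 127 CPM with a median of 118 in controls and from 122 to 159.7 CPM with a median of 139 in Dis3 cKO, with 7 of 8 cKO oocytes above every control and a log2 fold change of 0.18, SE 0.06, adjusted p = 0.0461. Spike-in scaling turned this to -0.36 (adjusted p = 0.138), and the call was lost without the low-count filter (adjusted p = 0.14). At p20 it ran from 115 to 136 CPM with a median of 124 in controls and from 95.2 to 152 CPM with a median of 122 in dcKO. These CPM lack the TMM factor used in the fit, where the dcKO log2 fold change was -0.18 (adjusted p = 0.0423). That call was lost in 5 settings, with an adjusted p of 0.31 under spike-in scaling, 0.0851 with DESeq2, 0.121 without the low-count filter, 0.0756 in a fit of these 2 groups and 0.132 with counts summed per tag. Against Dis3 cKO oocytes the dcKO value was -0.25 (adjusted p = 0.00675), which became 0.025 under spike-in scaling, and against Exosc10 cKO it was -0.19 (adjusted p = 0.0335), lost under spike-in scaling (adjusted p = 0.319). The poly(A) values for Dis3 cKO, 0.12 (adjusted p = 0.426) in GV, 0.18 (adjusted p = 0.136) in GV3h and 0.22 (adjusted p = 0.0637) in MII, were not called.

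Between GV3h oocytes, held 3 h in culture, and GV oocytes the number of members called depended on the scaling in Dis3 cKO. In controls edgeR called 0 of 10 (2.71% of all genes), 1 member had an unadjusted p under 0.05, and DESeq2 called 1 (3.64%). That member was Gpr3, which lay above every GV control in all 8 GV3h controls (74.9 to 113 CPM against 55.9 to 74.7) at a log2 fold change of 0.47 (adjusted p = 0.0589). Pde3a was at 0.046 (adjusted p = 0.918). In Dis3 cKO oocytes 1 of 10 was called between GV3h and GV (17.3%), Prkar2b at -0.92 (adjusted p = 2.4e-05). Under spike-in scaling 7 of 10 were called there, beside 37% of all genes, of which nearly all were higher (36.1%), with Prkar2b still lower at -0.50 (adjusted p = 0.0453) and Pde3a, Gpr3, Adcy9, Gnas, Prkacb and Prkar1a higher, from 0.55 for Pde3a to 0.84 for Prkacb. That scaling moved the median of all genes from 0.0039 to 0.47. The Dis3 effect at GV3h minus that at GV was called for 0 members by edgeR (2.04% of all genes) and 0 by DESeq2 (3.13%), with 2 members at an unadjusted p under 0.05, Prkar2b at -0.72 (adjusted p = 0.15) and Prkacb at 0.73 (adjusted p = 0.267).

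Between GV oocytes and MII eggs the direction depended on the scaling. All these libraries select on the poly(A) tail, and no RiboMinus library came from GV3h oocytes or MII eggs. Changes in tail length and in transcript number therefore cannot be told apart between stages. The ratio of gene counts to spike-in counts had a median of 138 in GV controls and 45.6 in MII controls, and scaling to the spike-in moved the median log2 fold change of all genes from -0.27 to -2.12 in controls and from -0.26 to -1.50 in Dis3 cKO. Relative to other transcripts, controls called 6 of 10 members (58.5% of all genes). Higher in MII (22.7% of all genes) were 5 of them, Adcy9 at 1.07 (adjusted p = 2.6e-07), Prkar2b at 1.04 (adjusted p = 3.0e-05), Prkaca at 1.02 (adjusted p = 6.3e-07), Adcy3 at 0.77 (adjusted p = 0.0104) and Pde3a at 0.60 (adjusted p = 1.7e-04), each below 0 under spike-in scaling, from -0.78 for Adcy9 to -1.26 for Pde3a. Gnas was lower in MII at -0.57 (adjusted p = 0.0253), with 73.5 to 104 CPM in MII controls against 115 to 210.2 in GV controls and no overlap, and it was lower under both scalings.

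Dis3 cKO oocytes also called 6 members between GV and MII (63.3%), all higher relative to other transcripts (24.8% of all genes were): Prkaca, Adcy3, Adcy9, Prkar2b, Gpr3 and Prkar1a, and all 6 were below 0 under spike-in scaling. Pde3a, called in controls, was at 0.15 (adjusted p = 0.198) in Dis3 cKO. The difference between the genotypes in this step was -0.45 (adjusted p = 0.0679) for Pde3a and 0.63 (adjusted p = 0.129) for Gnas. It was called for 0 members by edgeR (13.2% of all genes), with 2 at an unadjusted p under 0.05, and for Pde3a by DESeq2 (15.3%). Under spike-in scaling 3 members were called, beside 30.1% of all genes, all 3 with values above 0 (29.4% of all genes), Gnas at 1.41 (adjusted p = 0.00871), Gpr3 at 0.98 (adjusted p = 0.0194) and Prkar1a at 0.72 (adjusted p = 0.0434), and the Pde3a difference turned to 0.19 (adjusted p = 0.618).

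**Figure D4:**
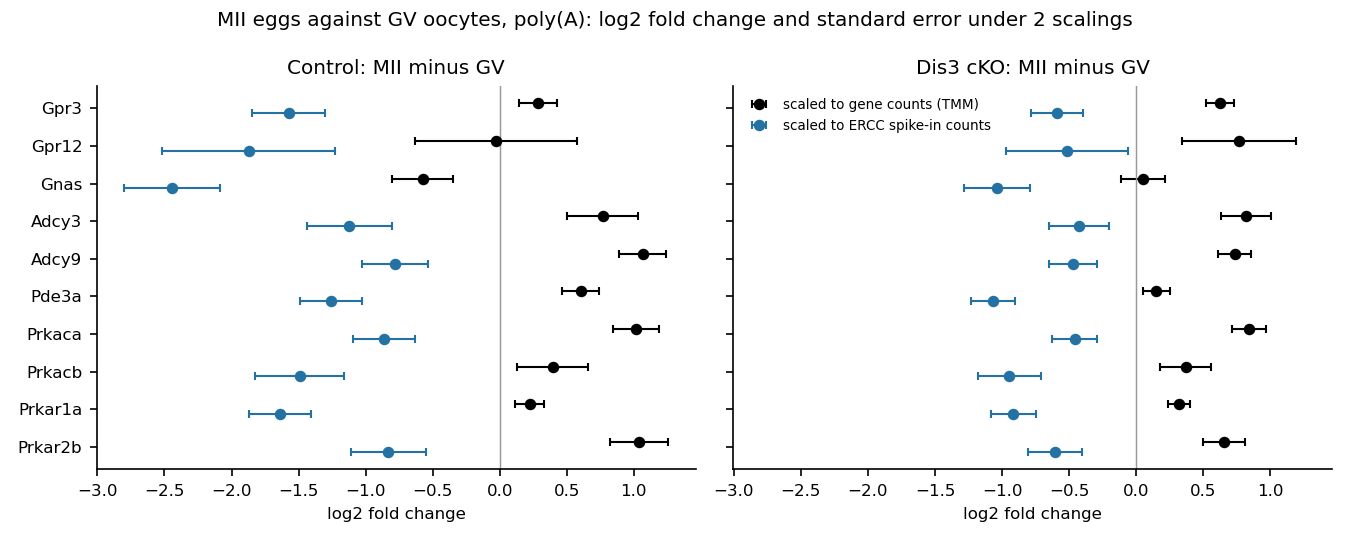
Log2 fold change with its standard error (x axes) of each member (rows) between MII eggs and GV oocytes in control and Dis3 cKO poly(A) libraries, scaled to gene counts or to spike-in counts. Scaled to gene counts most members lie at or above 0, and scaled to spike-in counts the members called higher lie below 0, Pde3a in controls moving from 0.60 to -1.26.

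Adult and p20 control oocytes differed in 2 members (19.1% of all genes), both lower in adults (10.4%). Prkacb was lower in adults at -0.80 (SE 0.16, adjusted p = 3.2e-04), with 11.3 to 25 CPM in adults against 20.4 to 46.1 at p20, and Gnas at -0.56 (SE 0.11, adjusted p = 3.1e-04), with 122 to 189 against 171 to 274. In both genes 6 of 8 adult oocytes lay below every p20 oocyte. Pde3a lay lower in all 8 adults (472 to 544 CPM against 553 to 614), with a log2 fold change of -0.16 (adjusted p = 0.428) that was not called. Scaled to spike-in counts, the median of all genes moved from -0.0038 to -1.69 and all 10 members were called lower in adults, as were 85.7% of all genes. The ratio of gene counts to spike-in counts had a median of 397 in adult and 1269 in p20 controls. Whether both ages received equal amounts of spike-in was not tested, so these calls describe gene counts per spike-in count. With counts summed per tag 0 were called (1.04% of all genes).

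Lists of related genes, chosen with earlier results of these data known, place the members among their partners. The shares of all genes called higher and lower against control stand beside them: 13.6% and 8.33% in GV, 22.9% and 15.7% in GV3h, 27.3% and 14.8% in MII and 15.7% and 12.4% in adult RiboMinus Dis3 cKO. At p20 they were 3.61% and 3.76% in Dis3 cKO, 3.95% and 3.5% in Exosc10 cKO and 26.6% and 27.1% in dcKO. These shares and the list counts below were scaled to gene counts. Spike-in scaling changed the balance over all genes. It gave 1265 higher and 2317 lower in GV, 3046 and 1850 in GV3h and 6535 and 749 in MII, of 17389. In adult RiboMinus Dis3 cKO it gave 699 and 6144 of 15334. At p20 it gave 124 and 844 in Dis3 cKO, 214 and 150 in Exosc10 cKO and 2833 and 3238 in dcKO, of 15882.

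Of 17 tested A-kinase anchoring protein genes, whose products tether PKA, Dis3 cKO gave 1 higher and 4 lower in GV, 1 and 7 in GV3h, and 0 and 9 in MII, where 27.3% of all genes were called higher and 14.8% lower. In adult RiboMinus oocytes it gave 2 higher and 5 lower of 16, at p20 0 and 0 in either single mutant, and in dcKO 0 and 8, beside 26.6% and 27.1% of all genes. The list's median log2 fold change was -0.33 in MII, beside 0.16 over all genes, and -0.32 in dcKO beside -0.0061. Akap10, which binds both types of regulatory subunit, stood at 28.1 ± 7.85 against 88.9 ± 23.5 CPM (SD, n = 16 and 8) in MII Dis3 cKO and control eggs. Its log2 fold changes were -0.98 in GV, -1.16 in GV3h and -1.75, SE 0.13, adjusted p = 5.6e-18 in MII. Akap9, a centrosomal and Golgi anchor, fell in MII at -1.36, in adult RiboMinus at -0.83 and in dcKO at -1.42.

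Of 20 other tested genes of cAMP synthesis, Dis3 cKO gave 1 higher and 3 lower in GV, 5 and 4 in GV3h and 4 and 6 in MII. Adult RiboMinus oocytes gave 1 and 2 of 19, p20 Dis3 cKO 1 and 1 of 18, Exosc10 cKO 1 and 0, and dcKO 3 and 7. The total of 9 of 20 in GV3h stands beside 38.6% of all genes, and the list's median log2 fold change was -0.19 in MII and -0.24 in dcKO, beside 0.16 and -0.0061 over all genes. Rgs17, a brake on the inhibitory G proteins, stood at 330.2 ± 53.5 against 656 ± 77.7 CPM (SD, n = 16 and 8) in MII Dis3 cKO and control eggs, and it fell at -0.73 in GV, -0.64 in GV3h, -1.07 in MII, -0.68 in adult RiboMinus and -0.69 in dcKO. Ric8b, a chaperone of the stimulatory G protein alpha subunit, rose in all 7 comparisons of mutant with control, from 0.70 in dcKO to 1.89 in GV3h, though under spike-in scaling none of its 4 RiboMinus calls held. Adcy5, another membrane cyclase, fell in p20 Dis3 cKO at -1.29, SE 0.19, adjusted p = 5.7e-06, from 86.2 ± 7.76 to 35.5 ± 9.84 CPM (SD, n = 8 each).

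The other phosphodiesterases split. Of 17 tested, Dis3 cKO gave 1 higher and 1 lower in GV, 3 and 5 in GV3h and 3 and 3 in MII, with 0 and 2 of 16 in adult RiboMinus oocytes and 3 and 6 in dcKO. Each p20 single mutant gave 1 higher and 0 lower. The shares called in either direction over all genes were 21.9% in GV, 38.6% in GV3h, 42.1% in MII and 53.7% in dcKO, and the list's median was 0.26 in MII and -0.34 in dcKO. In dcKO Pde7a, a cAMP-specific enzyme, rose from 2.81 ± 1.81 to 20.3 ± 10.7 CPM (SD, n = 8 each) at 2.69, SE 0.39, adjusted p = 6.4e-07, and Pde10a, which cleaves cAMP and cGMP, fell at -1.16, SE 0.15, adjusted p = 1.1e-07. Pde3b, the paralog of Pde3a, was at -0.41 in MII, a call lost under spike-in scaling (-0.10, adjusted p = 0.575), and -0.28 in adult RiboMinus Dis3 cKO.

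Among 15 other tested PKA and cAMP effector genes, Dis3 cKO gave 2 higher and 2 lower in GV, 6 and 2 in GV3h, 4 and 4 in MII and 3 and 3 in adult RiboMinus oocytes. At p20 Dis3 cKO gave 0 and 0, Exosc10 cKO 0 and 1, and dcKO 4 and 4. In either direction 21.9% of all genes were called in GV, 38.6% in GV3h, 42.1% in MII, 28.1% in adult RiboMinus and 53.7% in dcKO oocytes, and the list's median was -0.080 in MII and 0.21 in dcKO. Rapgef3, the exchange factor EPAC1 that cAMP activates directly, fell in Dis3 cKO GV oocytes from 40.0 ± 10.7 to 6.06 ± 4.83 CPM (SD, n = 8 and 15) at -2.80, SE 0.41, adjusted p = 1.8e-07, in GV3h at -1.71 and in adult RiboMinus at -1.78. Prkx, a kinase related to the PKA catalytic subunits, rose at 0.84 in GV, 1.19 in GV3h and 1.79 in MII, and the GV call was lost under spike-in scaling (0.60, adjusted p = 0.0797). Its adult RiboMinus value of 0.50 became -0.056 under that scaling. In dcKO the cAMP-responsive factor genes Crem and Creb1 rose at 2.05 and 1.09.

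Of 14 genes of meiotic resumption that PKA acts on, directly or further down, Dis3 cKO gave 1 higher and 2 lower in GV, 4 and 5 in GV3h, 7 and 1 in MII (27.3% and 14.8% of all genes) and 2 and 2 in adult RiboMinus oocytes. At p20 Dis3 cKO gave 0 and 2, Exosc10 cKO 1 and 1, and dcKO 3 and 6 (26.6% and 27.1%). The list's median was 0.23 in MII and -0.096 in dcKO. Cdc25b, the phosphatase that starts resumption, fell in adult RiboMinus Dis3 cKO from 85.0 ± 8.42 to 49.1 ± 7.07 CPM (SD, n = 8 each) at -0.87, SE 0.10, adjusted p = 7.5e-06, in GV3h at -0.66, and in both p20 single mutants at -0.61 and -0.64. The GV3h and Exosc10 cKO calls were lost under spike-in scaling (adjusted p = 0.0749 and 0.195). Wee1, a kinase that inhibits CDK1, rose in GV3h at 1.83, SE 0.23, adjusted p = 1.4e-09, in MII at 1.11 and in dcKO at 1.28. Of 8 tested genes of the cGMP and gap junction input, dcKO gave 1 higher and 4 lower, beside 53.7% of all genes called in either direction, and MII Dis3 cKO 2 and 3, beside 42.1%. The list's median was -0.999 in MII and -0.83 in dcKO. Adult RiboMinus oocytes gave 2 and 1, GV 1 and 0, GV3h 1 and 1, p20 Dis3 cKO 0 and 0, and Exosc10 cKO 0 and 1. The list's median there was -0.21, -0.29, 0.073, -0.045 and -0.31, in the same order. This list was drawn up with Nppc and Npr2, which are also granulosa and cumulus markers above. Both had a median of 0 CPM in MII Dis3 cKO eggs, and the part of such markers in the list's medians was not tested.

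The genes most like Pde3a over the 12 RNA group means, among 10494 compared, were Dip2b (Pearson r = 0.989), Pacsin2 (0.983) and Gda (0.981). For Gpr3 they were March6 (0.897), Pax2 (0.884) and Col13a1 (0.876), and Adcy3 was below the level set for this comparison. These points share libraries within each group and the centring of log2(CPM + 1) within each assay, so the r values are descriptions.

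H3K27me3 peaks lay at the starts of Adcy3 in every list, at those of other members in some lists and at others in none. Peaks were called per library in the deposited lists, and a peak counted when it lay within 2 kb of an annotated start. Adcy3 had one in 12 of 12 lists, Gpr12 in 9, Prkar2b in 8, Gnas in 7 and Prkar1a in 6, Gpr3 and Prkacb in 1 each, and Adcy9 and Prkaca in 0, while Pde3a was not analysed here. Of 17492 protein-coding genes, 22.0% to 37.7% had such a peak at 1 or more of their starts in a single list.

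At the most upstream Gnas start shown above, H3K27me3 was listed in 6 of 6 control lists, adult and p20, in 0 of 3 adult Dis3 cKO lists and in 1 of 3 dcKO lists. Of 3041 starts of protein-coding genes with a peak in all 6 control lists, 235 (7.73%) had none in the 3 adult Dis3 cKO lists. The 3 other Gnas starts had no H3K27me3 peak in the adult lists or in the p20 control lists. Which product of the locus each start gives is not in the sources used here. The missing peaks are therefore not tied to the start of the alpha subunit's transcript. Prkar1a showed the opposite, with peaks at its most upstream start, whose sequence is not shown, in 0 of 3 adult control and 3 of 3 adult Dis3 cKO lists, and in 1 of 3 p20 control and 2 of 3 dcKO lists. Of 12680 starts with no peak in the 3 adult control lists, 331 (2.61%) had one in all 3 adult Dis3 cKO lists. With 3 lists on each side an exact test cannot give a p below 0.1, and none was made.

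RNA polymerase II peaks were fewer, at 4.30% to 23.6% of these genes in a list. Gpr3 carried one in 7 of 9 lists: 2 of 3 adult control, 2 of 3 adult Dis3 cKO and 3 of 3 p20 control. Prkaca had one in 4 lists, Gnas in 2, Gpr12, Adcy3 and Adcy9 in 1 each, and Prkacb, Prkar1a and Prkar2b in 0. Each library was sampled to the same number of reads without removing duplicates, per the series' design text, so a missing peak may lie under what this depth shows.

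**Figure D5:**
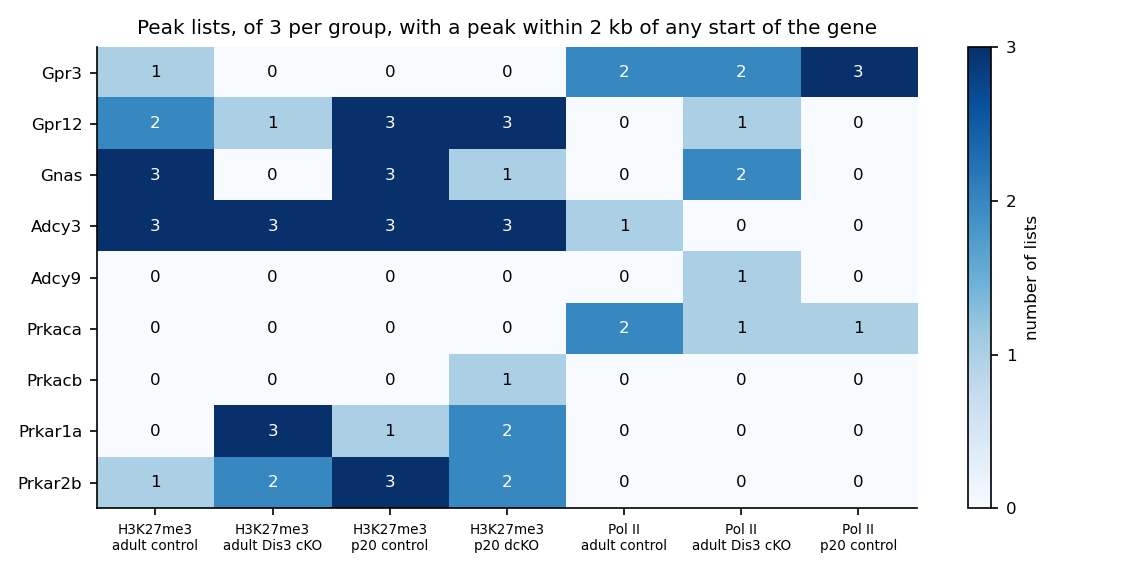
Number of peak lists, of 3 per group (colour and printed digit), with a peak within 2 kb of any start of each of 9 members (rows), by mark and group (columns). Adcy3 has H3K27me3 in all 12 lists, Prkar1a in all 3 adult Dis3 cKO lists, and Gpr3 has RNA polymerase II in 7 of 9 lists. Gnas has H3K27me3 in all 6 control lists, there only at its most upstream start.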

How the data were processed

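Gene and ERCC spike-in read counts were deposited by the authors, one table per oocyte. Per the submitters' processing notes, the tools were cutadapt 2.5, FastQC 0.11.8, STAR 2.7.2a, SAMtools 1.9, HTSeq 0.9.1, R 3.5.1, DESeq2 1.24.0 and SEACR, on mm10. The annotation release and the use of strand are not given in the sources used here. The deposited peak lists give signal per region, in the units of the authors' files. Gene IDs matched a symbol for 99.7% (poly(A)) and 99.4% (RiboMinus).

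From the counts, edgeR 4.0.16 (TMM scaling, filterByExpr, quasi-likelihood F test, Benjamini-Hochberg over all genes tested, threshold 0.05, R 4.3.3) was fitted over all poly(A) groups, over the adult RiboMinus groups, over the p20 groups, and over adult and p20 groups together for the comparison of ages. CPM are counts per 1000000 gene counts of a library, and fold changes are first group over second. The CPM lack the TMM factor that enters the fold changes, so a fold change can differ from the ratio of the CPM beside it. Levels were not compared between genes, since counts are not per length. Alternatives were spike-in scaling, DESeq2 1.42.0, no low-count filter, fits of 2 groups, a replicate block, counts summed per title tag and left-out libraries, the last chosen after seeing the data. Peaks counted at 1 or more bases of overlap with 2 kb on either side of a start.

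On simulated counts the poly(A) GV Dis3 fit (16829 genes) recovered 39.4% of 2-fold and 18.8% of 1.5-fold changes, and the fit of GV3h against GV controls (16819 genes) 37.2% and 18.8%. The adult RiboMinus fit (15036 genes) recovered 56.6% and 30.2%, and the dcKO fit (15484 genes) 56.2% and 28.4%, with 0 wrong signs among those recovered. Few genes were changed in these counts: in the GV Dis3 fit 94 by 2-fold and 96 by 1.5-fold, beside 16639 unchanged. The data had a far larger share of called genes, which alters the adjusted threshold, so recovery in the data can differ from these values.

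The members were taken by name, and from each further list at most the 2 genes with the largest rise and the 2 with the largest fall past the threshold, at a mean of 5 CPM or more in 1 group, were named. Members and lists were chosen with earlier results of these data known. The IgG libraries and number 9 of the GV Dis3 cKO group were not analysed here. No 2 libraries held identical counts, so each oocyte was counted as 1 sample. Read counts after amplification are not independent molecules.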

Additional observations from a re-analysis of the deposited data

Results flagged for a closer look

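The Dis3 effect on Pde3a differed between adult and p20 RiboMinus oocytes by -1.04 on the log2 scale, as tested by an interaction term. Pde3a was at -1.15 in adult and -0.12 in p20 oocytes. In adult cKO oocytes all 8 values lay below all controls, and at p20 4 of 8 did.

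Of 90 pairs of a member and a group of 10 or fewer libraries, 9 held a library whose gap to its nearest neighbour was large for the group's range, and chance gives about 1 in 20. Adcy9 read 47.8 CPM in GV3h control library 2 (next 34.0) and 48.8 in adult control library AM1758_3 (next 36.9). Prkar1a read 138 in GV3h control library 7 (next 115), 147 in MII control library 1 (next 111) and, at the low end, 96.0 in adult control library AM1759_3 (next 113). Pde3a read 317 in Exosc10 cKO library 2_4 (next 522). Gnas read 147 in adult Dis3 cKO library AM1713_3 (next 125). In dcKO, Gpr12 read 3.13 in library 2_1 (next 1.40) and Prkaca 80.2 in library 1_2 (next 63.7).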

How the results depend on the processing

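Of 1306 member values under all alternatives run, 1137 kept their direction and their side of the threshold, 48 lost a call and 51 gained one. A further 22 values that were called in 1 or both fits changed sign, all 22 under spike-in scaling, and 48 values called in neither fit changed sign, 27 of them under spike-in scaling. Pde3a in Dis3 cKO stayed called and lower under every alternative in the 3 poly(A) stages, from -1.96 to -1.40, and in adult RiboMinus oocytes it ranged from -1.69 to -1.15 with the call lost only when counts were summed per tag. Of 870 values of listed and targeted genes, 782 were kept, 84 lost a call and 4 changed sign.

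Signs changed under spike-in scaling as follows. Between MII and GV controls, Pde3a was -1.26, Gpr3 -1.57, Adcy3 -1.12, Adcy9 -0.78, Prkaca -0.86, Prkacb -1.49, Prkar1a -1.64 and Prkar2b -0.83. Between MII and GV Dis3 cKO, Pde3a was -1.07, Gpr3 -0.59, Adcy3 -0.43, Adcy9 -0.47, Gnas -1.04, Prkaca -0.46, Prkacb -0.95, Prkar1a -0.92 and Prkar2b -0.60. In adult RiboMinus Dis3 cKO, Prkar1a was -0.36, Akap8l -0.13, Arpp19 -0.16, Ccnb1 -0.17 and Prkx -0.056. Prkar1a in dcKO against Dis3 cKO was 0.025. Between adult and p20 controls, Gpr12 was -1.50, Prkaca -1.65 and Prkar2b -1.62. Spike-in scaling moved the median of all genes from 0.035 to -0.23 in GV, from 0.16 to 0.52 in MII and from 0.026 to -0.52 in adult RiboMinus Dis3 cKO, so these values follow gene counts per spike-in count.

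The number of members called became, under spike-in scaling and with the share of all genes called beside it, 1 for GV Dis3 cKO (20.6%), 10 for MII against GV controls (87.8%), 7 for GV3h against GV Dis3 cKO (37%), 3 for the MII minus GV effect (30.1%), 7 for adult RiboMinus (44.6%), 0 for Exosc10 cKO (2.29%), 5 for dcKO (38.2%), 3 and 5 for dcKO against Dis3 cKO (36.9%) and Exosc10 cKO (31.6%), and 10 for adult against p20 controls (86.1%). DESeq2 called 1 for GV3h against GV controls (3.64%), 2 for GV3h against GV Dis3 cKO (20.2%) and 1 for the MII minus GV effect (15.3%), and fits of 2 groups called 1 (15.1%) and 2 (29.6%) for the first pair. Counts summed per tag gave 0 for adult RiboMinus (0%), Exosc10 cKO (0.832%), adult against p20 controls (1.04%) and the adult minus p20 effect (0.307%), and 4 for dcKO (31.8%). There 2 sums stood on each side. Over all comparisons with that fit, 16 of 80 member values lost a call and 0 gained one, among them calls in p20 comparisons other than those listed here. Leaving out all 4 libraries that stand apart, GV Dis3 cKO 6 or 8, or MII Dis3 cKO 15 gave 1 for GV3h against GV controls (5.22%, 2.9%, 2.95% and 3.92%), and leaving out the last gave 2 for GV3h against GV Dis3 cKO (20.7%). Leaving out GV Dis3 cKO 6 gave 1 for the MII minus GV effect (13%).

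Replicate numbers are shared between groups, but same-numbered oocytes did not deviate together (median r of pairs from -0.013 to 0.14, with no comparison in which every pair passed 0.1 and, in each, at most 3 of 8 numbers correlating best with their own). With the replicate block, 137 of 140 member values kept their side of the threshold, Adcy3 in GV3h and Gpr3 in MII lost theirs, and GV3h against GV Dis3 cKO called 2 members (17%). No paired analysis was possible because of a lack of shared title tags for 2 kinds of comparison only, adult RiboMinus Dis3 cKO against control and adult against p20.

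Members with an H3K27me3 peak in all 3 lists numbered 2 in adult controls, 2 in adult Dis3 cKO, 4 in p20 controls and 2 in dcKO. Within 1 kb the adult Dis3 cKO number was 1, so either Adcy3 or Prkar1a no longer had a peak in all 3 lists. With only peaks above the median signal the dcKO number was 0, so neither Adcy3 nor Gpr12 kept all 3 there. Without 1 list at a time the numbers in the 4 groups ranged from 2 to 3, 2 to 3, 4 to 4 and 2 to 4. For RNA polymerase II, numbers of 0, 0 and 1 in adult controls, adult Dis3 cKO and p20 controls became 1 and 1 in the adults within 5 kb and 0 at p20 within 1 kb, and ranged from 0 to 2, 0 to 1 and 1 to 1 without 1 list. Low counts limit Gpr12 and Adcy3, and mutants and tags cannot be told apart from animals.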

Other observations

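Genes of the cGMP and gap junction input, which sets how active PDE3A is, differed in ways not described above. Prkg1, a cGMP-dependent kinase, rose in adult RiboMinus Dis3 cKO oocytes from 32.0 ± 6.60 to 72.8 ± 20.8 CPM (SD, n = 8 each) at 1.09, SE 0.14, adjusted p = 2.5e-05, a call lost when counts were summed per tag, and was lower in dcKO at -0.66, a call lost under spike-in scaling (adjusted p = 0.0604) and per tag (adjusted p = 0.103). Prkg2, its membrane-bound relative, fell in Dis3 cKO in GV3h at -1.62, SE 0.41, adjusted p = 0.00107 and in MII at -1.65, SE 0.40, adjusted p = 5.4e-04. Gjc1, which encodes connexin 45, rose in GV3h Dis3 cKO at 1.59 and in dcKO at 1.85. Gja4, which encodes connexin 37, the gap junction protein of the oocyte, stood at 141 ± 50 against 85.4 ± 17.8 CPM (SD, n = 16 and 8) in MII Dis3 cKO and control eggs, at 0.63, a call lost in a fit of these 2 groups alone (0.61, adjusted p = 0.0671).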
